A study of Mus musculus with 8 samples.

Results

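The genes described here are the enzymes and transporters of glycolysis, from the entry of glucose into the cell to the export of lactate. They were chosen by name: every non-control probe whose gene name in the array files is one of 38 glycolysis genes was taken, which gave 65 probes on 92 spots, out of 27600 gene names on the array. Total RNA of hematopoietic stem cells (HSCs) from the bone marrow of B6 mice had been measured on 8 Agilent 1-colour arrays, with 1 sample per array. There were 3 NrasG12D/G12D arrays (both alleles mutant), 3 NrasG12D/+ arrays (1 mutant allele) and 2 Nras+/+ arrays (no mutant allele). The G12D change locks Nras, a small GTPase that relays growth factor signals, in the active form, and according to the series title it was expressed from the endogenous gene. How and when the allele was switched on, the age of the mice, the sort that defined the HSCs and the animal behind each sample are not stated in the labels. The p-values below therefore cover only the spread among these 8 samples, which may be technical.

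Glycolysis turns glucose into pyruvate through a chain of enzymes, several of which exist as isoenzymes encoded by separate genes. Lactate dehydrogenase can convert the pyruvate into lactate, and the pyruvate dehydrogenase kinases hold pyruvate back from oxidation in the mitochondria by switching off pyruvate dehydrogenase. Adult HSCs are known for relying on glycolysis in the low-oxygen bone marrow, where hypoxia-inducible factors raise many of these genes, and oncogenic Ras is known in many cell types for raising glucose uptake and lactate output.

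The array sees each gene through a probe of 60 bases. The sequences below are the probes that carry the values of Hk3, Pfkp, Gapdh and the less bright Ldha probe, which are described further on because they separate genotypes or single arrays. The positions are those printed in the array files, which state no genome build.
Hk3 probe, chr13:55016161-55016220, minus strand: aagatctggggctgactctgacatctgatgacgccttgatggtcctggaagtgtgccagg
Pfkp probe, chr13:6581718-6583872, minus strand: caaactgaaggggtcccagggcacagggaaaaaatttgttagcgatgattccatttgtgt
Gapdh probe, chr6:125128116-125128174, minus strand: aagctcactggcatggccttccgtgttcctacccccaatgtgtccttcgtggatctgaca
Ldha probe, chr7:46722098-46723027, plus strand: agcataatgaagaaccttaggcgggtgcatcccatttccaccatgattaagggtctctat
The Pfkp and Ldha positions span more than the probe's length. Aldolase A was read by 2 probes that share a run of 27 bases, caggctctttcccatcactcttgctgc, so these probes see overlapping stretches of the same transcript.

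In RefSeq (GRCm38.p6) the 38 genes lie on 14 chromosomes, with 8 of them on chromosome 6 and 6 on chromosome 11. Ldha and Ldhc are neighbours on chromosome 7, with 5.6 kb between them, and Eno2, Tpi1 and Gapdh follow each other on chromosome 6 with gaps of 40.9 and 347.7 kb. Of the 65 probes, 64 are placed by the array files on the chromosome of their gene. The exception is the brightest Slc2a3 probe, which the files place on chromosome 17, while the RefSeq gene lies on chromosome 6. The link of this probe to Slc2a3 rests on the gene name in the files. The names Pgm1 and Pgm2 in the files are the reverse of current use: by their accessions, the gene written Pgm1 is now Pgm2 and the gene written Pgm2 is now Pgm1. The files' names are kept here, as is Pkm2 for the gene now called Pkm.

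One feature that the choice by name did not use is the letter content of the promoters. RefSeq windows from 250 bases before to 50 bases after a gene's start were at hand for 36 of the 38 genes. The letters ACGTG, the core of the hypoxia response element (searched on both strands, so also as CACGT), occurred in a window of 20 of these 36 genes (55.6%), against 5886 of all 27025 genes (21.8%). At least 2 matches were present in 12 of the 36 genes, against 9.28% of all genes. The G and C rich GGGCGG (or CCGCCC) occurred in 69.4% of the members and 38.2% of all genes, GCGTG (or CACGC) in 58.3% and 35.2%, and TATAAA (or TTTATA) in 13.9% and 15.7%. A palindromic CACGTG counts as a match on each strand. Where a gene had several windows, the window with the most matches was counted, for members and all genes alike. The stretch printed was likewise the one with the most matches. The upstream stretches of 3 genes are printed with ACGTG and CACGT in capitals: that of Ldha, which had the most matches, that of Pgk1, a textbook target of hypoxia-inducible factors, and that of Hk3, whose level followed the genotypes below.
Ldha, chr7:46845554-46845803, plus strand: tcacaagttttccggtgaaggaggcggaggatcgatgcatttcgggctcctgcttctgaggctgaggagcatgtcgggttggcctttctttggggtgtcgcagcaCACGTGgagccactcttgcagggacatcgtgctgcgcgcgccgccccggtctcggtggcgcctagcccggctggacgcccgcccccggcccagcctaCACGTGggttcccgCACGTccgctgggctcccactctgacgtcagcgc
Pgk1, chrX:106186850-106187099, plus strand: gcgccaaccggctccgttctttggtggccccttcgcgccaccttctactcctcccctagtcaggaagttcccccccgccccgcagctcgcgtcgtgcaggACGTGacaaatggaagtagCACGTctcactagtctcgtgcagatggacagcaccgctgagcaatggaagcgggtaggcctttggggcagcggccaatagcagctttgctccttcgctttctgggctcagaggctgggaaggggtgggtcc
Hk3, chr13:55021386-55021635, minus strand: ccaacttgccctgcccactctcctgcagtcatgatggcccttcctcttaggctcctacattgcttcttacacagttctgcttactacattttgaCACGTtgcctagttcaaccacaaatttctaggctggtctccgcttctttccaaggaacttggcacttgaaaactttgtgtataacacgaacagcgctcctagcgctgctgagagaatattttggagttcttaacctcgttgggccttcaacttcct
The Ldha stretch holds 5 matches, the Pgk1 stretch 2 and the Hk3 stretch 1. These matches are letters in a window and no binding was measured. The Ldha stretch lies inside the RefSeq gene, which spans 46842274 to 46855627. The Hk3 stretch overlaps its RefSeq gene, which spans 55005985 to 55021475.

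Signal was low over the whole series. A probe well above background was present for 34% to 39% of all gene names in NrasG12D/G12D, for 37% to 52% in NrasG12D/+, and for 39.7% to 45.5% in Nras+/+. Arrays of the same genotype correlated on average at 0.63 and arrays of different genotypes at 0.62, over the genes tested. The arrays lie on 2 slides. The 3 NrasG12D/G12D arrays and NrasG12D/+ replicate 3 were on slide 2, and the other two NrasG12D/+ arrays were on slide 1 together with Nras+/+. NrasG12D/G12D and Nras+/+ therefore share no slide, and a fit with the slide as a block links them only through NrasG12D/+, which lay on both. Of 11 HSC markers, 4 to 9 were above background per array, and Procr was above background on none. RNA came from a bulk of cells, so fewer cells of a type and less RNA per cell cannot be told apart.

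Detection of the glycolysis genes followed that of all genes. A probe well above background was found for 23, 18 and 22 of the 38 genes in NrasG12D/G12D, for 26, 27 and 20 in NrasG12D/+, and for 26 and 21 in Nras+/+, in order of replicate number. The genotypes overlapped. The 4 arrays of slide 1 had 21 to 27 of the genes and the 4 arrays of slide 2 had 18 to 23, and their shares of all genes were 39.7% to 52% and 34% to 39%. With the file's less strict flag for a positive and significant signal, 30, 33 and 33 genes were present in NrasG12D/G12D, 36, 35 and 33 in NrasG12D/+, and 35 and 33 in Nras+/+.

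**Figure D1:**
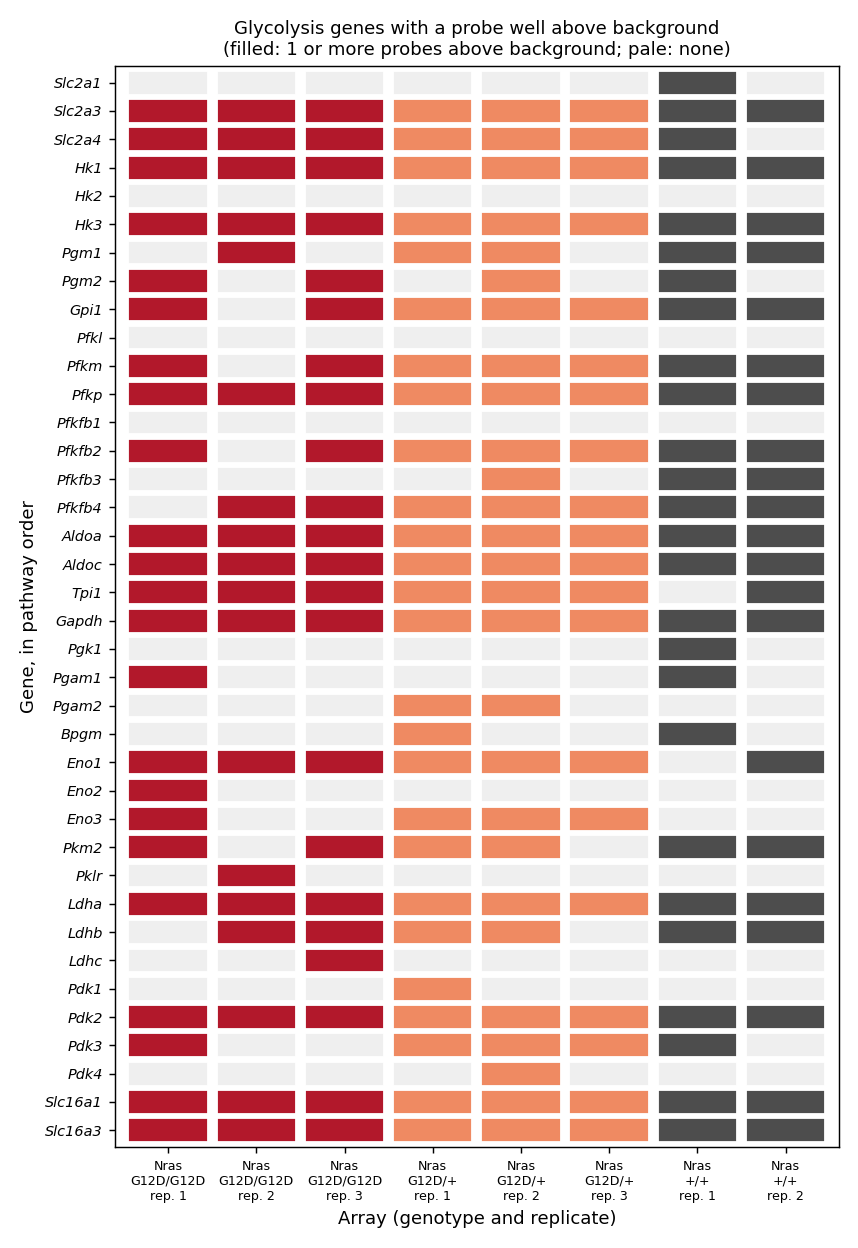
Detection of the 38 glycolysis genes (rows, in pathway order) on the 8 arrays (columns, by genotype and replicate). A filled cell means that 1 or more probes of the gene were well above background; 11 genes were filled on all 8 arrays and 3 on none.

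Each of the 16 steps had at least 1 gene above background on some array. Of the 38 genes, 35 had a probe above background on at least 1 array and 11 had one on all 8 arrays. The tested probe was above background on all 8 arrays for Slc2a3, Hk1, Hk3, Aldoa, Aldoc, Gapdh, Ldha, Pdk2, Slc16a1 and Slc16a3. For Slc2a3 this was the probe placed on chromosome 17. There were 3 genes above background on no array with any probe: Hk2 (the hexokinase that many tumours raise), Pfkl (the liver-type phosphofructokinase) and Pfkfb1 (a bifunctional enzyme of liver and muscle). Phosphoglycerate kinase was the only step with no gene tested, because Pgk1 was above background on 1 array alone, Nras+/+ replicate 1. A probe had to be above background on at least 2 arrays to be tested, which left 27 of the 38 genes. The 11 others were Slc2a1, Hk2, Pfkl, Pfkfb1, Pgk1, Bpgm, Eno2, Pklr, Ldhc, Pdk1 and Pdk4.

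Several genes that were not tested reached background on 1 array each. Slc2a1, the main glucose transporter of many blood cells, was above background in Nras+/+ replicate 1. Pklr (the pyruvate kinase of liver and red cells) was above background in NrasG12D/G12D replicate 2, Eno2 (neuronal enolase) in NrasG12D/G12D replicate 1 and Ldhc (the testis lactate dehydrogenase) in NrasG12D/G12D replicate 3. Pdk1 was above background in NrasG12D/+ replicate 1 and Pdk4 in NrasG12D/+ replicate 2. Bpgm, which makes the regulator of hemoglobin in red cells, was above background in NrasG12D/+ replicate 1 and Nras+/+ replicate 1.

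No glycolysis gene passed the test in any comparison, and neither did any other gene. Levels are log2 signals relative to the 75th percentile of the array, taken over the probes above background on all 8 arrays, and all 15038 genes were tested together with limma at an adjusted p of 0.05 (two-sided, Benjamini-Hochberg). The share of genes called was 0% for NrasG12D/G12D against Nras+/+, 0% for NrasG12D/+ against Nras+/+ and 0% for NrasG12D/G12D against NrasG12D/+. Without Nras+/+ replicate 2, 9 genes of the whole array passed in the first of these comparisons and 10 in the second, none of them a glycolysis gene. At an unadjusted p under 0.05, 3 of the 27 glycolysis genes were called in NrasG12D/G12D against Nras+/+ (1 higher and 2 lower), where 980 genes (6.52% of all) were. In NrasG12D/+ against Nras+/+ it was again 3 genes (2 higher and 1 lower), against 715 of all genes (4.75%), and in NrasG12D/G12D against NrasG12D/+ it was 2 genes (1 higher and 1 lower), against 895 of all genes (5.95%). By direction, the shares over all genes were 1.32% higher and 5.19% lower in NrasG12D/G12D against Nras+/+, 2.35% higher and 2.4% lower in NrasG12D/+ against Nras+/+, and 1.61% higher and 4.34% lower between the mutants.

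Counts of genes whose arrays do not overlap between genotypes give a similar picture. They were 9 of 27 (33.3%, 2 higher and 7 lower) in NrasG12D/G12D against Nras+/+, where the share over all genes was 29% (6.04% higher and 23% lower). In NrasG12D/+ against Nras+/+ they were 10 of 27 (37%, 4 higher and 6 lower), with 25.1% over all genes (8.98% higher and 16.1% lower). Between the mutant genotypes they were 3 of 27 (11.1%, all lower in NrasG12D/G12D), with 11.6% over all genes (2.89% higher and 8.75% lower). The shares of the glycolysis genes were not tested against those of all genes, and with 27 genes no difference is read from them. By the sign of the change alone, 12 of 27 were higher and 15 lower in NrasG12D/G12D against Nras+/+, where 35.5% and 64.5% of all genes were. The counts for NrasG12D/+ against Nras+/+ were 11 higher and 16 lower, beside 41.9% and 58.1% of all genes. Between the mutants they were again 11 higher and 16 lower, beside 42.2% and 57.8%.

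The median log2 change of the 27 genes was -0.02 in NrasG12D/G12D against Nras+/+, beside -0.44 for all genes tested. It was -0.21 in NrasG12D/+ against Nras+/+, beside -0.26 for all genes, and -0.38 in NrasG12D/G12D against NrasG12D/+, beside -0.20. The first of these differences, 0.42 relative to all genes, was -0.0031 without Nras+/+ replicate 2, 0.09 without NrasG12D/G12D replicate 3 and 0.08 with another background correction, and it was 0.70 with the slide as a block.

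**Figure D2:**
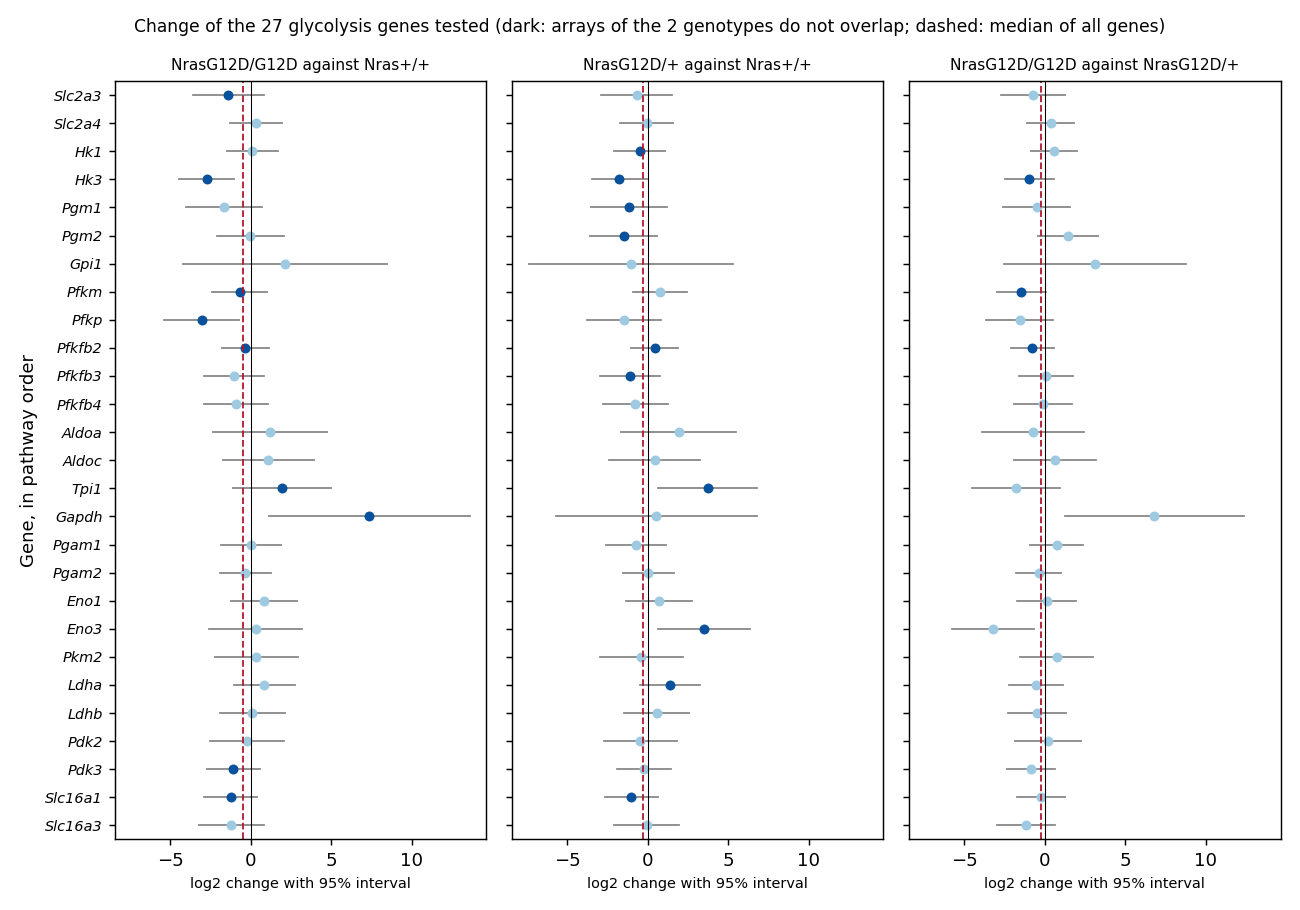
Log2 change (points) and its 95% interval (lines) for the 27 glycolysis genes tested, in pathway order, in the 3 comparisons. Dark points mark genes whose arrays do not overlap between the genotypes (9, 10 and 3 genes from left to right) and the dashed line is the median of all genes tested; the intervals of Gapdh and Gpi1 are far wider than those of the other genes.

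The glucose transporters that were tested showed no ordered difference. Slc2a3, a transporter with high affinity for glucose, read -3.02, -1.61 and -1.79 in NrasG12D/G12D, -2.74, -0.18 and -1.32 in NrasG12D/+, and 0.05 and -1.54 in Nras+/+. These values come from the probe placed on chromosome 17. The other Slc2a3 probes, placed on chromosome 6, were above background on 1 array each. Every NrasG12D/G12D array was below both Nras+/+ arrays, by a margin of 0.07 between the nearest values, and the NrasG12D/+ arrays covered the range between. The log2 change was -1.39 (SE 0.97, limma adjusted p 0.743) in NrasG12D/G12D against Nras+/+, -0.67 (SE 0.97, adjusted p 0.867) in NrasG12D/+ against Nras+/+ and -0.73 (SE 0.87, adjusted p 0.894) between the mutants. The first was -0.60 without Nras+/+ replicate 1 and -2.19 without Nras+/+ replicate 2. Slc2a4, the insulin-regulated transporter of muscle and fat, stayed between -4.25 and -2.80 on all arrays, and its 10 repeat spots had a median spread (SD) of 0.25 on an array, beside 0.48 between arrays.

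Among the hexokinases, which trap glucose in the cell by phosphorylation, Hk3 stood out, and Hk1 did not with its tested probe. Hk3, a hexokinase typical of myeloid cells, read -1.74, -0.78 and -0.90 in NrasG12D/G12D, -0.53, -0.41 and 0.42 in NrasG12D/+, and 2.16 and 1.01 in Nras+/+. All NrasG12D/G12D arrays lay below all NrasG12D/+ arrays, and these lay below both Nras+/+ arrays. It was the one glycolysis gene in this order; 0.898% of all genes tested had the same order without overlap and 0.0997% the reverse.

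Hk3 averaged -1.14 ± 0.53 in NrasG12D/G12D, -0.17 ± 0.52 in NrasG12D/+ (SD, n = 3 each) and 1.59 ± 0.81 in Nras+/+ (SD, n = 2). The log2 change was -2.73 in NrasG12D/G12D against Nras+/+ (SE 0.75, limma p 0.00558, adjusted p 0.725). In NrasG12D/+ against Nras+/+ it was -1.76 (SE 0.75, limma p 0.044, adjusted p 0.814), and between the mutants -0.97 (SE 0.67, limma p 0.184, adjusted p 0.834). None of these passed after adjustment. Over all alternatives the change in NrasG12D/G12D against Nras+/+ ran from -3.61 to -2.10, with adjusted p values of 0.531 to 0.876. Within slide 1 the NrasG12D/+ arrays were lower than the Nras+/+ arrays by a log2 change of -2.06, and within slide 2 the NrasG12D/G12D arrays differed from the NrasG12D/+ array by -1.56.

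Markers of mature neutrophils, cells that also carry Hk3, were also lowest in NrasG12D/G12D, by their median. Of 9 such markers, 2, 3 and 2 were above background in NrasG12D/G12D, 5, 5 and 3 in NrasG12D/+, and 4 and 4 in Nras+/+, and S100a8, Camp and Lcn2 were above background on no array. The median level of the 6 markers tested, relative to all genes, was -1.72, -1.14 and -1.14 in NrasG12D/G12D, -0.23, -0.20 and -0.64 in NrasG12D/+, and -0.20 and 0.76 in Nras+/+. Their summed linear signal ranged from 0.947 to 2.35 in NrasG12D/G12D, from 1.88 to 71.8 in NrasG12D/+ and from 2.10 to 3.27 in Nras+/+. Of the 6, 4 were lower without overlap in NrasG12D/G12D against Nras+/+, as were 23% of all genes. The median change in NrasG12D/G12D against Nras+/+ was -1.08 for the neutrophil markers and -1.01 for the 7 HSC markers tested, beside -0.44 for all genes. For erythroid, B cell, T and NK cell, megakaryocyte, and myeloid progenitor and monocyte markers it was -0.39, 0.52, -0.42, -0.21 and -0.48. The part of neutrophils in the Hk3 difference was not tested. Of 9 markers of myeloid progenitors and monocytes, 6, 5 and 5 were above background in NrasG12D/G12D, 8, 8 and 7 in NrasG12D/+, and 7 and 6 in Nras+/+. NrasG12D/G12D replicate 1 thus tied with Nras+/+ replicate 2. Beside the counts of both lists stand the shares of all gene names above background. These were 34% to 39% in NrasG12D/G12D, 37% to 52% in NrasG12D/+ and 39.7% to 45.5% in Nras+/+. The median level of the 8 myeloid progenitor and monocyte markers tested, relative to all genes, overlapped between genotypes. It was 0.07, -0.14 and -0.02 in NrasG12D/G12D, 0.50, -0.60 and 0.20 in NrasG12D/+, and -0.58 and 0.62 in Nras+/+.

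**Figure D3:**
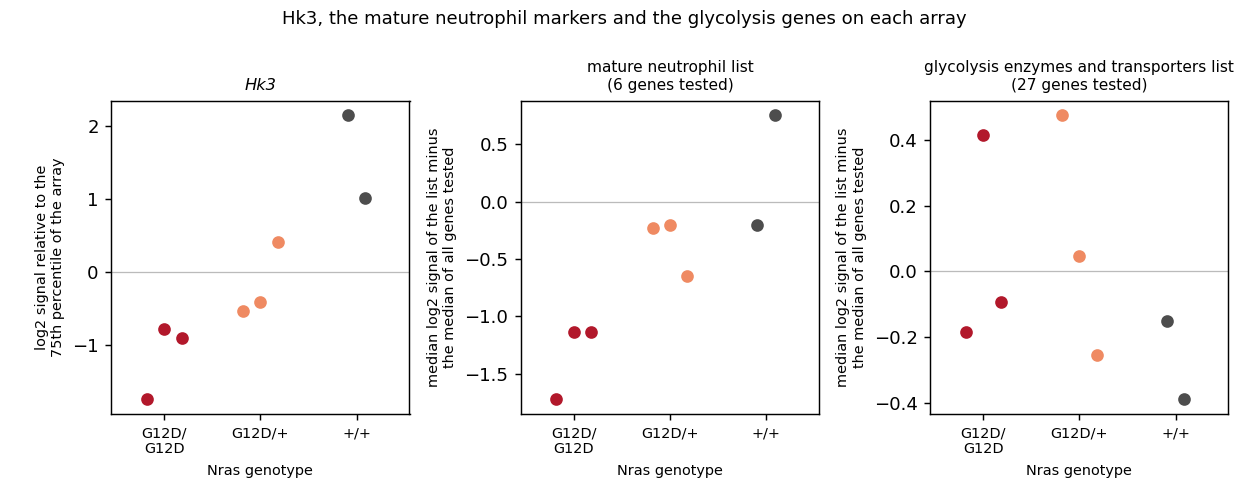
Hk3 (left, log2 signal relative to the 75th percentile of the array), the median of the 6 mature neutrophil markers tested (middle) and the median of the 27 glycolysis genes tested (right), both as log2 signal minus the median of all genes tested; each point is 1 array. Hk3 separates the 3 genotypes, the neutrophil median separates NrasG12D/G12D from the other two, and the glycolysis median overlaps.

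Hk1, the hexokinase found in most tissues, stayed between -1.26 and -0.03 on all 8 arrays with its tested probe. It read -1.22, -0.03 and -0.21 in NrasG12D/G12D, -0.89, -1.26 and -1.05 in NrasG12D/+, and -0.68 and -0.49 in Nras+/+. The change was 0.10 (SE 0.70, limma adjusted p 0.973) for NrasG12D/G12D against Nras+/+, -0.48 (SE 0.70, adjusted p 0.868) for NrasG12D/+ against Nras+/+ and 0.58 (SE 0.62, adjusted p 0.882) between the mutants. The 95% interval of the first ran from -1.48 to 1.68. Hk1 is read by 6 probes, and 1 of them reached 6.22 in NrasG12D/+ replicate 2 while no other array exceeded -5.20. Another was above background on 2 NrasG12D/+ arrays only and passed the filter only through that genotype, where it was highest. It gave -2.93 between the mutants (SE 0.79), a value that is not independent of this choice. The remaining Hk1 probes that passed the filter gave -1.56 (SE 1.28) and 0.50 (SE 0.74) in that comparison.

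The phosphoglucomutases, which link glucose phosphate to glycogen, were faint. The gene written Pgm1 read -5.20, -2.40 and -5.82 in NrasG12D/G12D, -4.53, -3.90 and -3.50 in NrasG12D/+, and -2.80 and -2.88 in Nras+/+. The gene written Pgm2 read -4.23, -4.92 and -2.10 in NrasG12D/G12D, -5.42, -4.81 and -5.44 in NrasG12D/+, and -3.44 and -4.02 in Nras+/+. For both genes all NrasG12D/+ arrays were below both Nras+/+ arrays, and the NrasG12D/G12D arrays were spread over more than the range of the Nras+/+ arrays. The change of the gene written Pgm2 between the mutants was 1.48 (SE 0.82, limma adjusted p 0.808).

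Glucose phosphate isomerase gave opposite signs with its 2 probes. The brighter Gpi1 probe, on 1 spot, read -4.44, -3.90 and 6.37 in NrasG12D/G12D, -2.20, -5.05 and -4.15 in NrasG12D/+, and -3.31 and -2.25 in Nras+/+. Its mean in NrasG12D/G12D therefore rests on replicate 3. The other probe, on 10 spots, read -3.82, -4.44 and -4.55 in NrasG12D/G12D, -4.27, -2.53 and -2.19 in NrasG12D/+, and -2.98 and -2.49 in Nras+/+. With it the log2 change in NrasG12D/G12D against Nras+/+ was -1.54 (SE 0.82), in place of 2.12 (SE 2.80) with the brighter probe. The 10 spots differed by a median SD of 0.26 on an array, beside 0.97 between arrays.

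The phosphofructokinases catalyse the committed step, and both isoforms tested had low values in NrasG12D/G12D. Pfkp, the platelet type, read -4.60, -2.35 and -3.77 in NrasG12D/G12D, -0.70, -3.20 and -2.14 in NrasG12D/+, and -1.29 and 0.21 in Nras+/+. Pfkm, the muscle type, read -3.80, -3.85 and -3.58 in NrasG12D/G12D, -1.52, -2.08 and -3.31 in NrasG12D/+, and -2.93 and -3.21 in Nras+/+. For both genes every NrasG12D/G12D array was below both Nras+/+ arrays, and for Pfkm it was below every NrasG12D/+ array too.

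The log2 change of Pfkp was -3.03 in NrasG12D/G12D against Nras+/+ (SE 1.02, limma p 0.0161, adjusted p 0.725). Its 2 other probes gave -1.38 (SE 0.78) and -1.51 (SE 0.83), with the same sign and closer to 0. Without Nras+/+ replicate 2 the value was -2.28 and without replicate 1 it was -3.78. For Pfkm the change between the mutants was -1.44 (SE 0.67, limma p 0.0612, adjusted p 0.802), and it was -0.43 within slide 2, where the only NrasG12D/+ array is the lowest of the 3.

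The bifunctional PFKFB enzymes set the level of the sugar phosphate that activates phosphofructokinase. Pfkfb2 read -3.73, -3.40 and -3.34 in NrasG12D/G12D, -2.46, -3.00 and -2.76 in NrasG12D/+, and -3.02 and -3.32 in Nras+/+. All its values lie within 1.27 log2 units, and its order placed NrasG12D/+ highest and NrasG12D/G12D lowest without overlap. Pfkfb4 read -5.21, -3.25 and -4.11 in NrasG12D/G12D, -4.93, -4.11 and -3.14 in NrasG12D/+, and -3.84 and -2.73 in Nras+/+, with overlap throughout.

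Pfkfb3, the inducible form that strongly favours glycolysis, was above background on 0 of 3 NrasG12D/G12D arrays, 1 of 3 NrasG12D/+ arrays and both Nras+/+ arrays with its tested probe. The mean over the NrasG12D/G12D arrays was thus at least 1.43-fold below that over the Nras+/+ arrays. This bound replaces a signal dimmer than any probe called above background on its array by that lowest signal called. It does not cover the spread among arrays: the 95% interval of the log2 change ran from -2.87 to 0.83. The tested probe passed the filter only through Nras+/+, so the bound is not independent of its being bright there. With normexp background correction the change was -0.36. The groups overlapped all the same, with -5.58, -3.65 and -4.86 in NrasG12D/G12D, -5.05, -4.22 and -5.06 in NrasG12D/+, and -4.16 and -3.19 in Nras+/+. The measured means were -4.70 in NrasG12D/G12D, -4.78 in NrasG12D/+ and -3.67 in Nras+/+. The fit gave -1.02 (SE 0.82, limma adjusted p 0.757) in NrasG12D/G12D against Nras+/+, -1.11 (SE 0.82, adjusted p 0.814) in NrasG12D/+ against Nras+/+ and 0.08 (SE 0.73, adjusted p 0.99) between the mutants. Another Pfkfb3 probe gave -2.60 (SE 0.98, limma p 0.0264 before adjustment), -1.80 (SE 0.98) and -0.80 (SE 0.88) in the same order of comparisons. That probe was above background only in NrasG12D/+ replicate 2 and Nras+/+ replicate 1. Its levels in NrasG12D/G12D are therefore bounds, and its p is no separate support for a difference.

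The aldolases split the six-carbon sugar. Aldoa, the form of muscle and blood cells, read 3.46, 1.55 and 3.84 in NrasG12D/G12D, 7.14, 1.69 and 2.21 in NrasG12D/+, and 2.38 and 1.14 in Nras+/+. NrasG12D/+ replicate 1 was the highest, and the other arrays overlapped. The probe that shares 27 bases with it also peaked there, at 7.11, against -2.26 to -0.56 on the other 7 arrays. The high value was therefore seen on 2 separate spots of that array. The changes of Aldoa were 1.19 (SE 1.57, limma adjusted p 0.837), 1.92 (SE 1.57, adjusted p 0.815) and -0.73 (SE 1.40, adjusted p 0.943) in NrasG12D/G12D against Nras+/+, in NrasG12D/+ against Nras+/+ and between the mutants. Without NrasG12D/+ replicate 1 the second was 0.19 and the third 0.99. With the slide as a block the first was 3.38.

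Aldoc, the brain form, read -3.82, -2.86 and -0.41 in NrasG12D/G12D, -4.38, -1.06 and -3.58 in NrasG12D/+, and -3.51 and -3.40 in Nras+/+. The mutant arrays lay on both sides of the Nras+/+ arrays. Its changes were 1.09 (SE 1.24, limma adjusted p 0.813), 0.45 (SE 1.24, adjusted p 0.935) and 0.65 (SE 1.11, adjusted p 0.936) in the same order of comparisons, and the other Aldoc probe gave -1.77, -0.31 and -1.47.

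Triosephosphate isomerase, Tpi1, was the gene with the largest positive change in NrasG12D/+ against Nras+/+ among the 27. It read -2.97, -2.41 and -2.34 in NrasG12D/G12D, 1.75, -0.74 and -3.36 in NrasG12D/+, and -5.47 (not well above background) and -3.56 in Nras+/+. All 6 mutant arrays were above both Nras+/+ arrays, though the nearest values differed by only 0.21. The change was 3.73 (SE 1.35, limma p 0.0221, adjusted p 0.814) in NrasG12D/+ against Nras+/+ and 5.02 within slide 1. Without NrasG12D/+ replicate 1 it was 2.47, and with normexp background correction 1.63. In NrasG12D/G12D against Nras+/+ the change was 1.94 (SE 1.35, adjusted p 0.743).

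Gapdh, which makes the first high-energy phosphate of the pathway and is often used as a reference gene, read 7.18, 10.20 and -1.56 in NrasG12D/G12D, -0.46, -2.19 and -2.004 in NrasG12D/+, and -2.21 and -1.96 in Nras+/+. NrasG12D/G12D replicates 1 and 2 were far above every other array, and replicate 3 of the same genotype lay within the range of the NrasG12D/+ arrays. The mean was 5.28 ± 6.11 in NrasG12D/G12D and -1.55 ± 0.95 in NrasG12D/+ (SD, n = 3 each), and -2.09 ± 0.17 in Nras+/+ (SD, n = 2).

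The log2 change of Gapdh was 7.36 (SE 2.75, limma p 0.0258, adjusted p 0.725) in NrasG12D/G12D against Nras+/+ and 6.83 (SE 2.46, limma p 0.022, adjusted p 0.802) in NrasG12D/G12D against NrasG12D/+. It was 0.54 (SE 2.75, adjusted p 0.965) in NrasG12D/+ against Nras+/+. Without NrasG12D/G12D replicate 2 the first value was 4.90, and without replicate 3 it was 10.78, with an adjusted p of 0.0932. Within slide 2, NrasG12D/G12D differed from the NrasG12D/+ array by 7.28. The array has 1 spot for Gapdh, so no other probe can be set beside it. The mouse genome also holds many processed Gapdh copies of near-identical sequence, and signal from these cannot be told apart here.

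Such single-array values were not rare among the glycolysis probes. Of the 54 glycolysis probes above background on at least 1 array, 6 (11.1%) had 1 array at least 4 log2 units above all others, against 1431 of all 23346 such probes (6.13%). They were probes of Slc2a3 and Gpi1 in NrasG12D/G12D replicate 3, Pklr in NrasG12D/G12D replicate 2, Ldha in NrasG12D/G12D replicate 1, Aldoa in NrasG12D/+ replicate 1 and Hk1 in NrasG12D/+ replicate 2. No Nras+/+ array was among them, though Nras+/+ had only 2 of the 8 arrays. The peaks of all probes were not counted by genotype. The other Aldoa probe was also highest on its array, by 3.30 log2 units. For Slc2a3, Gpi1, Ldha and Hk1 no other probe had a gap of this size on that array, and Pklr has no other probe. Whether such peaks arise on the array or in the RNA was not tested.

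**Figure D4:**
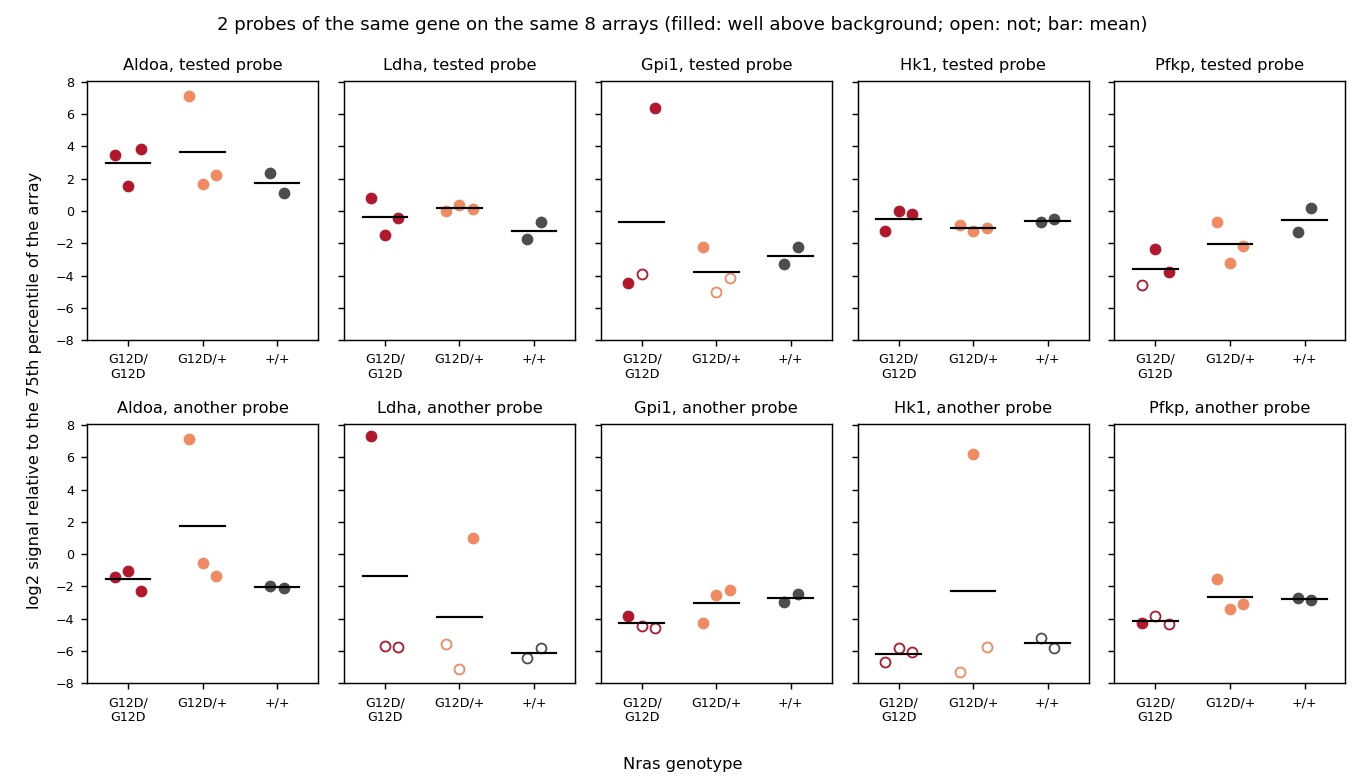
Levels (log2 signal relative to the 75th percentile of the array) of 2 probes each for Aldoa, Ldha, Gpi1, Hk1 and Pfkp, by genotype; points are arrays, filled where well above background, and bars are means. The Aldoa peak of NrasG12D/+ replicate 1 appears in both probes, and the peaks of Ldha, Gpi1 and Hk1 appear in 1 probe each.

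The phosphoglycerate mutases and enolases come next in the chain. Pgam1 and Pgam2 were above background on 2 arrays each, Pgam1 in NrasG12D/G12D replicate 1 and Nras+/+ replicate 1, and Pgam2 in NrasG12D/+ replicates 1 and 2. Eno1, the enolase of most tissues, read -4.46, -2.74 and -3.80 in NrasG12D/G12D, -4.60, -3.61 and -3.20 in NrasG12D/+, and -5.49 and -3.55 in Nras+/+, and the genotypes overlapped.

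Eno3, the muscle enolase, was brightest in NrasG12D/+. It read -3.42, -5.53 and -4.69 in NrasG12D/G12D, -1.43, -3.55 and 0.93 in NrasG12D/+, and -4.34 and -5.38 in Nras+/+. It was above background on all 3 NrasG12D/+ arrays, on 1 NrasG12D/G12D array and on no Nras+/+ array. Eno3 thus passed the filter only through NrasG12D/+, so the bound and the p-values below are not independent of its being bright there. With the bound defined for Pfkfb3, the mean over the NrasG12D/+ arrays was at least 6.72-fold above that over the Nras+/+ arrays. The measured means were -1.35 in NrasG12D/+ and -4.86 in Nras+/+ (limma change 3.51, SE 1.27, p 0.0219, adjusted p 0.814). The bound does not cover the spread among arrays, and the 95% interval of the log2 change ran from 0.64 to 6.39. In NrasG12D/G12D against NrasG12D/+ the change was -3.20 (SE 1.13, limma p 0.0202, adjusted p 0.802). These values move with 1 array: without NrasG12D/+ replicate 3 they were 2.38 and -2.06, and within slide 2, where that array is the only NrasG12D/+ one, the second was -5.48. With normexp background correction they were 0.89 and -0.99.

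Pyruvate kinase makes pyruvate and the last ATP of the pathway. The brightest probe of Pkm2 read -1.31, -4.12 and -3.68 in NrasG12D/G12D, -4.06, -2.12 and -5.16 in NrasG12D/+, and -3.35 and -3.44 in Nras+/+. The mutant arrays were spread on both sides of the Nras+/+ arrays. Its changes were 0.36 (SE 1.13, limma adjusted p 0.938) in NrasG12D/G12D against Nras+/+, -0.38 (SE 1.13, adjusted p 0.938) in NrasG12D/+ against Nras+/+ and 0.74 (SE 1.01, adjusted p 0.912) between the mutants. The files do not say which splice form of the gene this probe reads.

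**Figure D5:**
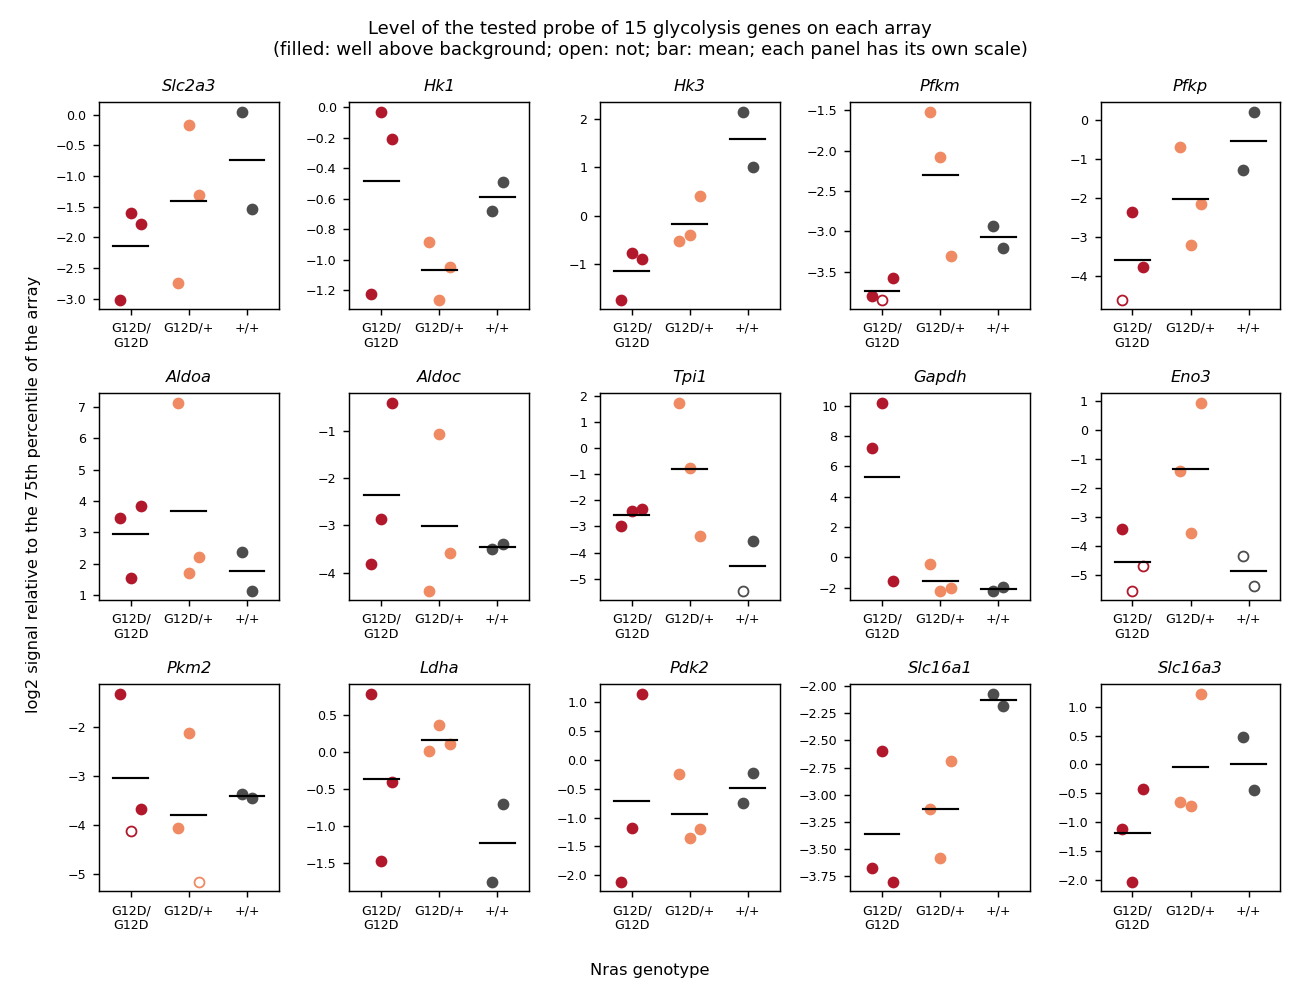
Level of the tested probe of 15 glycolysis genes on each array (log2 signal relative to the 75th percentile of the array), by genotype; filled points are well above background, open points are not, and bars are means. Each panel has its own scale; Hk3 is the gene whose 3 genotypes are in order without overlap, and Gapdh shows 2 NrasG12D/G12D arrays far above the rest.

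Lactate dehydrogenase A converts pyruvate to lactate and was above background on all arrays. Its brighter probe read 0.78, -1.47 and -0.41 in NrasG12D/G12D, 0.02, 0.36 and 0.11 in NrasG12D/+, and -1.75 and -0.70 in Nras+/+. The 3 NrasG12D/+ arrays lay close together (SD 0.18) and above both Nras+/+ arrays, while the NrasG12D/G12D arrays overlapped both other genotypes. The change was 1.39 (SE 0.83, limma adjusted p 0.814) in NrasG12D/+ against Nras+/+, 0.86 (SE 0.83, adjusted p 0.789) in NrasG12D/G12D against Nras+/+ and -0.53 (SE 0.75, adjusted p 0.918) between the mutants. The other Ldha probe, whose sequence is printed above, was above background on 2 arrays, at 7.33 in NrasG12D/G12D replicate 1 and at 1.03 in NrasG12D/+ replicate 3, and read -5.54 or lower elsewhere. Ldhb, the heart form, read -4.52, -2.31 and -3.86 in NrasG12D/G12D, -3.68, -2.06 and -3.55 in NrasG12D/+, and -3.77 and -3.58 in Nras+/+.

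The pyruvate dehydrogenase kinases were represented by Pdk2 and Pdk3, while Pdk1, the form most tied to hypoxia, was not tested. Pdk2 read -2.11, -1.18 and 1.14 in NrasG12D/G12D, -0.24, -1.35 and -1.20 in NrasG12D/+, and -0.76 and -0.22 in Nras+/+. The NrasG12D/G12D arrays lay on both sides of the others, and the changes were -0.23, -0.44 and 0.22 (SE 1.004, 1.004 and 0.90, limma adjusted p 0.956, 0.916 and 0.978) in NrasG12D/G12D against Nras+/+, in NrasG12D/+ against Nras+/+ and between the mutants. Pdk3 read -4.12, -4.58 and -4.98 in NrasG12D/G12D, -3.93, -4.26 and -2.92 in NrasG12D/+, and -3.25 and -3.74 in Nras+/+, so its NrasG12D/G12D arrays were below both Nras+/+ arrays.

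Of the lactate transporters, Slc16a1 was lower in every mutant array than in both Nras+/+ arrays. It read -3.67, -2.60 and -3.80 in NrasG12D/G12D, -3.13, -3.58 and -2.69 in NrasG12D/+, and -2.07 and -2.18 in Nras+/+. The change was -1.23 (SE 0.72, limma adjusted p 0.728) in NrasG12D/G12D against Nras+/+, -1.01 (SE 0.72, adjusted p 0.814) in NrasG12D/+ against Nras+/+ and -0.23 (SE 0.64, adjusted p 0.965) between the mutants. Another Slc16a1 probe gave -1.50 (SE 0.73) and -0.81 (SE 0.73) for the first of these and the second. Slc16a3, the exporter of strongly glycolytic cells, read -1.12, -2.04 and -0.43 in NrasG12D/G12D, -0.66, -0.72 and 1.23 in NrasG12D/+, and 0.48 and -0.45 in Nras+/+. Its changes were -1.21 (SE 0.89, limma adjusted p 0.75), -0.06 (SE 0.89, adjusted p 0.988) and -1.15 (SE 0.80, adjusted p 0.834) in the same order of comparisons.

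How far different probes of a gene went together could be checked for 8 glycolysis genes with at least 2 probes that passed the filter. All probes of a gene had the same sign for 5 of the 8 genes in NrasG12D/G12D against Nras+/+, for 5 in NrasG12D/+ against Nras+/+ and for 3 between the mutants. Hk1 and Aldoc had mixed signs in all 3 comparisons. Aldoa and Slc16a1 kept 1 sign over their probes in each comparison.

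The pathways around glycolysis were no different in their calls. Of 39 genes listed for gluconeogenesis, the pentose phosphate pathway, the entry of pyruvate into mitochondria and the hypoxia-inducible factor axis, 25 were tested and none passed in any comparison. At an unadjusted p under 0.05, Pdha1, a subunit of pyruvate dehydrogenase, had a change of -3.14 (SE 0.83, limma adjusted p 0.814) in NrasG12D/+ against Nras+/+. Pck2, a mitochondrial enzyme of gluconeogenesis, had 5.03 (SE 1.88, adjusted p 0.814) in the same comparison. The median change of the 9 hypoxia-axis genes tested was -0.16, -0.30 and -0.20 in NrasG12D/G12D against Nras+/+, in NrasG12D/+ against Nras+/+ and between the mutants, beside -0.44, -0.26 and -0.20 for all genes. In the 7 pentose phosphate genes it was -0.22, -0.26 and 0.14, in the 5 pyruvate entry genes -0.81, -0.42 and 0.70, and in the 4 gluconeogenesis genes -0.46, 1.13 and -1.59.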

How the data were processed

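Per the file headers, the scanner files are output of Agilent Feature Extraction 10.5.1.1. The deposited processed signal is an intensity from which the local background was subtracted and spatial trends removed by that software, with no scaling from array to array. The deposited value table holds a ratio, the processed signal divided by the median of the array. Other columns, per the file headers, are flags of 0 or 1 (well above background, positive and significant, outlier).

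Outlier spots were dropped, the log2 signals of repeat spots were averaged, and each array's 75th percentile was subtracted, taken over the 6576 probes flagged well above background on each of the 8 arrays. A probe was tested if above background on at least 2 arrays, with a value in each genotype, and the brightest probe stood for its gene (15038 genes). Genes were fitted with limma 3.58.1 in R 4.3.3 (lmFit, eBayes, two-sided, 1 spread for 3 genotypes, prior SD 1.05 with 3.86 degrees of freedom beside 5 residual ones) and adjusted by Benjamini-Hochberg at 0.05. The fit was tested on simulated data. Precision is limited by the number of arrays.

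The members, the gene lists and the marker lists were chosen with earlier results of these data known. Values per array are given for members whose tested probe was above background on at least 4 arrays. Changes are given for members above background on all 8 arrays, for the 4 of lowest p in each comparison, and for Slc2a1, Hk2, Pfkfb3, Pkm2, Ldha and Pdk1 where tested. Alternatives were normexp with an offset of 50, other scalings, the value table, other filters, each probe by itself, slide and replicate blocks, within-slide fits and leaving out each array.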

Additional observations from a re-analysis of the deposited data

How the results depend on the processing

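Over 708 recomputed changes of the glycolysis genes, none passed the threshold and 43 had the opposite sign. The lowest adjusted p (limma) was 0.0844, for Gapdh in NrasG12D/G12D against NrasG12D/+ without NrasG12D/G12D replicate 3. The alternatives run kept the sign of Hk3 in all 3 comparisons and of Eno3 in both comparisons with NrasG12D/+. They kept that of Aldoa, Ldha, Slc16a1 and Pfkfb3 in both comparisons against Nras+/+. For Gapdh, Slc2a3 and Slc16a3 it was kept in both comparisons with NrasG12D/G12D. The sign was also kept for Tpi1 and Pdk2 in NrasG12D/+ against Nras+/+ and for Pfkp in NrasG12D/G12D against Nras+/+. Between the mutants it was further kept for Pfkm, Hk1 and Pgm2. The cause of the sign changes was not tested. In NrasG12D/+ against Nras+/+, 1 gene of all genes tested passed with the percentile over all probes, 1 with quantile normalization, 1 with the value table and 1 with no filter. In NrasG12D/G12D against Nras+/+, 1 passed with quantile normalization, 1 with no filter and 1 with the slide block. In NrasG12D/G12D against NrasG12D/+, 4 passed with the slide block. Leaving out 1 array gave 0 to 10 genes in NrasG12D/+ against Nras+/+, 0 to 9 in NrasG12D/G12D against Nras+/+ and 0 to 2 between the mutants, with 10 and 9 reached without Nras+/+ replicate 2. The glycolysis median relative to all genes in NrasG12D/G12D against Nras+/+ was 0.0801 with normexp, 0.70 with the slide block and -0.0031 to 0.46 leaving out 1 array. With the flag for a positive and significant signal, NrasG12D/G12D replicate 2, NrasG12D/+ replicate 3 and Nras+/+ replicate 2 each had 33 glycolysis genes.

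Scaling moved the median of all genes in NrasG12D/G12D against Nras+/+, which was -0.44 as reported, 0.05 with the percentile over all probes, -0.13 with quantile normalization and 0.19 with the value table. In NrasG12D/G12D against Nras+/+, Pdk2 was 0.26 with the percentile over all probes, 0.40 with the value table and 0.18 with the slide block. In NrasG12D/+ against Nras+/+, Slc16a3 was 0.10 with the percentile over all probes and 0.12 with the value table, and Aldoc was -0.0244 with normexp. Between the mutants, Slc16a1 was 0.0909 with normexp, 0.10 with the percentile over all probes, 0.0813 with quantile normalization and 0.22 with the value table. With the slide block, and equally within a slide, Pkm2 was 0.31 in NrasG12D/+ against Nras+/+ and Aldoa 0.73 between the mutants. Taking another probe gave 0.20 for Hk1 and -0.31 for Aldoc in NrasG12D/+ against Nras+/+, -1.77 for Aldoc in NrasG12D/G12D against Nras+/+, and -0.80 for Pfkfb3, -1.47 for Aldoc and 2.50 for Ldha between the mutants.

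Leaving out 1 array moved 33 of 42 log2 changes by more than 1.5 times. The 9 that stayed within this were those of Hk3 in all 3 comparisons, Slc16a1 in both against Nras+/+, Hk1 and Eno3 in NrasG12D/+ against Nras+/+, Pfkp in NrasG12D/G12D against Nras+/+ and Pfkm between the mutants. Where the sign turned, the ranges were as follows. Those in NrasG12D/G12D against Nras+/+ were -1.15 to 0.47 for Pdk2, -0.50 to 0.90 for Pkm2 and -0.13 to 0.47 for Hk1. In NrasG12D/+ against Nras+/+ they were -1.46 to 0.13 for Slc2a3, -0.70 to 0.40 for Slc16a3, -0.0098 to 0.85 for Gapdh, -0.53 to 1.13 for Aldoc and -1.21 to 0.31 for Pkm2. Between the mutants they were -0.44 to 0.52 for Pfkfb3, -1.73 to 0.99 for Aldoa, -0.33 to 1.62 for Aldoc, -0.12 to 1.57 for Pkm2, -1.10 to 0.0277 for Ldha and -0.71 to 0.92 for Pdk2.

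Samples of different genotypes share replicate numbers, but same-numbered arrays deviated from their group means with correlations of only -0.09 to 0.07, so the numbers were not taken as pairs. With the replicate block no gene passed (0 in each comparison), and 1114, 998 and 920 genes had an unadjusted p under 0.05 in NrasG12D/G12D against Nras+/+, in NrasG12D/+ against Nras+/+ and between the mutants. The replicate block turned the sign of Pkm2 in NrasG12D/+ against Nras+/+ (0.12). Where a probe was not well above background its level is a bound, and 11 of 38 genes could not be tested for this reason.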
